A study of Homo sapiens with 4 samples.

Results

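The retinoic acid genes of T24 cells, a cell line from a human bladder carcinoma, were compared between control cells (2 libraries) and cells that overexpress CBX7 (2 libraries), a chromobox subunit of polycomb repressive complex 1. The set holds 10 genes of 60623 in the deposited table, taken by name: the retinal dehydrogenases ALDH1A1, ALDH1A2 and ALDH1A3, the retinal reductase DHRS3, the binding proteins CRABP1 and CRABP2, and the receptors RARA, RARB, RARG and RXRA. The set was chosen by measured values, the higher CRABP2 and the lower ALDH1A3 levels in these same 4 libraries, so the differences of its genes are a description, and counts of them past a threshold are no test of it. For overexpression the study cloned full-length CBX7 into a pCDH-3xFLAG vector, and the labels describe both groups only as T24 cells grown in RPMI with serum, giving no clone, time point or control construct. Since nothing states that replicates were separate cultures, the error values measure the spread between these libraries, which may be technical.

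Retinol is oxidised to retinal and then, by the ALDH1A enzymes, to retinoic acid, while DHRS3 turns retinal back into retinol. In the cytoplasm CRABP2 carries retinoic acid to the nuclear receptors, which bind DNA as pairs of a RAR and an RXR, and CYP26 enzymes break it down. Retinoids maintain the differentiation of urothelium, and several genes of the pathway, among them RARB, CYP26A1 and DHRS3, are themselves induced by retinoic acid.

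CRABP2 was about 4-fold higher in both CBX7 libraries, ALDH1A3 was lower in both by less, and RARA, RARG and RXRA differed by 0.16 or less on the log2 scale. CRABP1 had no read in any library, and RARB, ALDH1A1 and ALDH1A2 had 20 counts or fewer. In the edgeR fit 3 of 14862 genes (0.0202%) passed the adjusted threshold, and neither CRABP2, the other members, the other pathway genes nor the 17 retinoid-induced targets tested were among them.

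Promoter sequences are shown for 3 genes on which the account turns: CRABP2, whose level differed most, and RARB and CYP26A1, textbook targets that the receptors bind next to the start site. The windows cover the 250 bases before a start site in RefSeq (GRCh38.p14), in which all 10 members were matched, with 19 start sites. The receptors bind repeats of a 6-base unit, searched here as AGGTCA or AGTTCA or GGGTCA or GGTTCA on both strands and as direct repeats spaced by 1, 2 or 5 bases. Capitals mark the direct repeat in RARB and CYP26A1 and the single unit in CRABP2.
CRABP2, minus strand, chr1:156705817-156706034: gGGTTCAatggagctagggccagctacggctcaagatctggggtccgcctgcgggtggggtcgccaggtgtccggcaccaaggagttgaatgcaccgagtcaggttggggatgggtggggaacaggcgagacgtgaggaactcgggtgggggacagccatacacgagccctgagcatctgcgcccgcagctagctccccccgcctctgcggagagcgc
RARB, plus strand, chr3:25428013-25428262: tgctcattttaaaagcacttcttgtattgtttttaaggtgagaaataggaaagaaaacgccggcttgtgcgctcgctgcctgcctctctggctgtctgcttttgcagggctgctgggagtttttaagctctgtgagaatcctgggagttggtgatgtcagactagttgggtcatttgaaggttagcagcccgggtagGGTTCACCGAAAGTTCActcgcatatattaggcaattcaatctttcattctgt
CYP26A1, repeat on the minus strand, written along the plus strand of the gene, chr10:93073803-93073819: TGAACTTTGGGTGAACT

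The RARB repeat, spaced by 5 bases, lies 53 to 37 bases before 1 of the 4 RARB start sites in the table. Of the 19 start sites of the members it was the only window with a repeat, against 0.202% of 35116 start sites of all genes (0.074% for the spacing of 5 alone). The CYP26A1 repeat, also spaced by 5, lies 90 to 74 bases before 1 of its 2 start sites and inside an exon of the transcript that begins at the other, so only the repeat is printed. The CRABP2 window held 1 single unit and no repeat, and 33.8% of all start sites held at least 1 unit. These matches describe letters in a short window, and an empty window says nothing of sites farther away. The CRABP2 sequence stops before the first exon in GENCODE release 29.

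The labels were checked by the overexpressed gene itself. CBX7 (ENSG00000100307) had 261.4 and 203.3 expected counts in the control libraries and 42852 and 35641 in the CBX7 libraries, a difference of 7.35 on the log2 scale (edgeR quasi-likelihood test, Benjamini-Hochberg adjusted p = 0.000584). Total expected counts per library ran from 20800910 to 25135488. CBX7 replicate 1 stood apart: over the 11077 genes whose mean count reached 100, its log2 ratio to CBX7 replicate 2 correlated with gene length at -0.70 (Spearman), so its long genes read low and its short genes high, and between the control libraries the correlation was -0.49 (a description, over genes that share the libraries). The cells carried the keratins KRT7, KRT8 and KRT18 at 853.2 to 1465 TPM and the mesenchymal filament VIM at 2206 to 2757 TPM, while 7 of 15 bladder and T24 markers, among them the uroplakins UPK1A, UPK1B, UPK2 and UPK3A, had at most 3 counts in every library. Of the 8 markers tested, KRT19 (unadjusted p = 0.00141) and GATA3 (unadjusted p = 0.00778) lay under an unadjusted 0.05 in edgeR. Over all genes tested 4.74% did, and 3.42% were higher. Both were higher in CPM in CBX7 libraries, and neither passed the adjusted threshold (edgeR adjusted p = 0.352 and 0.602). GATA3 had 3 and 4 counts in control and 14 and 22 in CBX7 libraries. In TPM its groups overlapped (0.17 and 0.35 against 0.25 and 0.82). With a correction for gene length and GC content, KRT18 was higher and VIM lower (unadjusted p = 0.0399 and 0.0472, adjusted p = 0.595 and 0.625, edgeR). Of 9 markers of blood, endothelial, muscle and stromal cells, PTPRC and CD3E had at most 1 count in any library. The summed level of the 9 was 11.6 to 13.3 TPM in control and 7.65 to 12.3 TPM in CBX7 libraries. In CPM, CD68 was lower and COL1A1 higher (unadjusted p = 0.0258 and 0.0308, adjusted p = 0.916 and 0.943, edgeR). In TPM the COL1A1 groups overlapped (1.03 and 1.26 in control against 0.88 and 4.4). The endothelial CDH5 had 13 and 12 counts in control and 3 and 7 in CBX7 libraries (unadjusted p = 0.0584, adjusted p = 0.951, edgeR), and the stromal DCN, too low for the test, had 10 and 6 against 3 and 7.

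CRABP2 (ENSG00000143320), the cytoplasmic carrier that hands retinoic acid to the receptors, spans bases 156699606 to 156705816 of chromosome 1, minus strand (GENCODE release 29, GRCh38). It had 61 and 56 counts in the control libraries and 287 and 205 in the CBX7 libraries, all whole numbers. Both CBX7 libraries lay well above both control libraries; in bulk RNA, more cells with the transcript and more transcript per cell cannot be told apart. The gene annotated on the opposite strand, AL590666.4, had no count. In CPM, the count relative to the library total as scaled by TMM normalization, CRABP2 was at 2.61 ± 0.0784 in control and 10.5 ± 1.92 in CBX7 cells (SD, both n = 2). The fitted ratio was 4.03-fold (95% interval 2.77 to 5.86). Setting each CBX7 library over each control library gave ratios from 3.44 to 4.65. On the length-scaled TPM scale the levels were 4.53 and 4.90 in control and 17.8 and 17.2 in CBX7 libraries, which spread less within the CBX7 group than the CPM did.

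CRABP2 is a short gene (1033 bases in the deposited table), and CBX7 replicate 1 read short genes high. The fitted trend with length and GC content at CRABP2 was 0.30 on the log2 scale in CBX7 replicate 1 and between -0.13 and -0.03 in the other libraries. With that trend removed the log2 fold change was 1.84 (standard error 0.15), against 2.01 (standard error 0.22) before, and without CBX7 replicate 1 it was 1.82. CBX7 replicate 2 and control replicate 2 had the same fitted trend at CRABP2 (-0.13 each), and their CPM ratio was 3.44. That ratio sets 1 library against 1, and the cause of the CRABP2 difference was not tested.

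CRABP1 (ENSG00000166426), the paralogue that is linked to storage and breakdown of retinoic acid more than to its delivery, had 0 counts in all 4 libraries. A count of 0 allows a level of up to 3 counts, or 0.119 to 0.144 CPM at the depth of these libraries (counting error only). No difference in CRABP1 was detectable at this depth.

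FABP5, the other carrier of retinoic acid, which serves the receptor PPARD, was far more abundant than CRABP2 in every library, at 370.4 and 351.2 TPM in control and 448.9 and 391.3 TPM in CBX7 cells. Its log2 fold change was 0.37 (95% interval -0.15 to 0.90), and it did not pass the threshold (adjusted p = 0.951, edgeR's quasi-likelihood test). FABP5 is also short (676 bases), and with the length and GC trend removed the value was 0.20 (95% interval 0.0075 to 0.40, unadjusted p = 0.0443, adjusted p = 0.609, edgeR). The ratio of FABP5 to CRABP2 in TPM was 81.8 and 71.7 in the control libraries and 25.2 and 22.8 in the CBX7 libraries, so FABP5 transcripts outnumbered those of CRABP2 in both groups, by less with CBX7. That smaller ratio largely restates the higher CRABP2 level by which the set was chosen. The FABP5 counts were not whole. PPARD itself was 51.2 ± 0.272 CPM in control and 47.3 ± 2.75 CPM in CBX7 cells (SD, n = 2 libraries each; adjusted p = 0.951, edgeR).

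**Figure D1:**
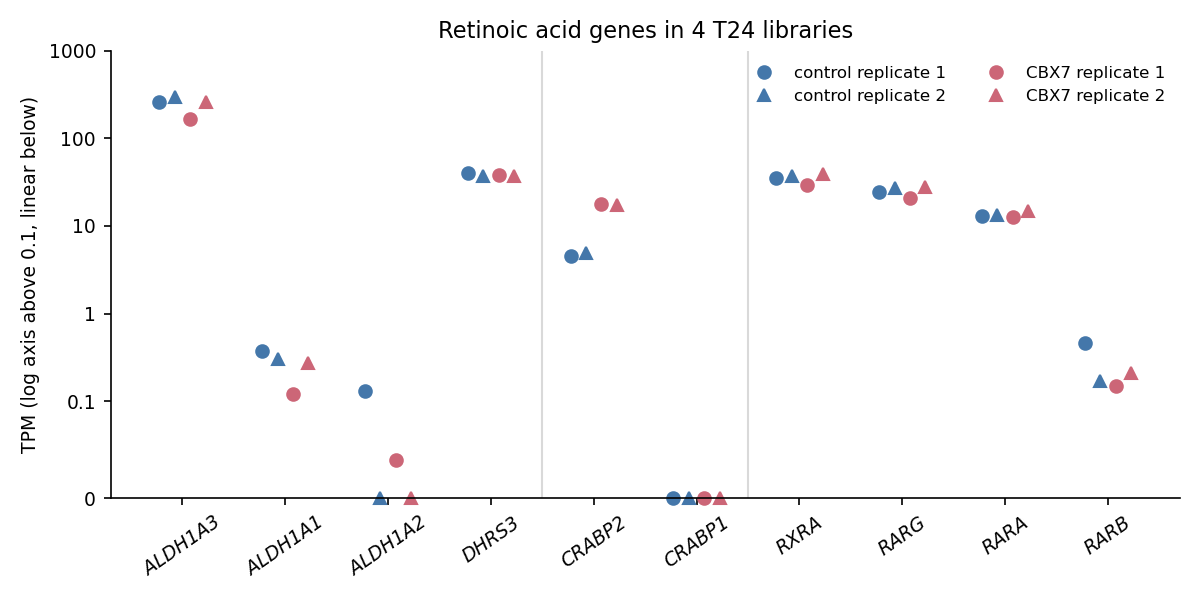
TPM of the 10 members in each library (vertical axis logarithmic above 0.1 and linear below; blue control, red CBX7, circle replicate 1, triangle replicate 2), ordered as synthesis, transport and receptors. CRABP2 is the member with the widest gap between the groups, from 4.53 and 4.90 TPM to 17.2 and 17.8 TPM, while CRABP1 lies at 0 throughout.

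ALDH1A3 (ENSG00000184254; chromosome 15, plus strand, 100877714 to 100916626 in GENCODE release 29), the retinal dehydrogenase that the study used as a stemness marker, was nearly the sole ALDH1A transcript of these cells. It made up 99.8% to 99.9% of the summed TPM of the 3 ALDH1A genes in every library. Its expected counts were 15470 and 14395 in control and 11684 and 13188 in CBX7 libraries, so both CBX7 libraries lay below both control libraries, though CBX7 replicate 2 came close to control. The TMM-scaled level was 667.0 ± 26.4 CPM in control and 537.1 ± 75.3 CPM in CBX7 cells (SD, both n = 2), a log2 fold change of -0.31 (standard error 0.15, 95% interval -0.68 to 0.06). In TPM the values were 262.5 and 293.9 in control against 167.2 and 257.8 in CBX7 cells. Without CBX7 replicate 1 the log2 fold change was -0.17, and without CBX7 replicate 2 it was -0.46. With the length and GC trend removed it was -0.29 (standard error 0.10, 95% interval -0.54 to -0.05). The fitted trend at ALDH1A3 was -0.03 on the log2 scale in CBX7 replicate 1 and 0.01 in each other library. ALDH1A3 counts were not whole, and AC015712.2, annotated on the opposite strand over part of the gene, had 930 to 1432 counts; whether the counting used strand is not given in the sources used here, so reads of both genes cannot be told apart.

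ALDH1A1 had 13 counts in control replicate 1 and 5 in each of the other 3 libraries, and ALDH1A2 had 1 count in each replicate 1 and 0 in each replicate 2. Both fell short of the filter on low counts, and at these counts a small difference was not detectable. DHRS3, the reductase that lowers retinal and that retinoic acid induces, was measured well. It had 1376 and 1098 counts in control and 1554 and 1124 in CBX7 libraries, and the groups overlapped. Its level was 55.0 ± 3.80 CPM in control and 57.3 ± 9.93 CPM in CBX7 cells (SD, both n = 2), a log2 fold change of 0.06 (95% interval -0.36 to 0.48), and -0.03 once the length and GC trend was removed.

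Among the receptors, RXRA, the shared partner of the RARs, had the highest level, at 29.5 to 39.5 TPM over the 4 libraries. RARG, the main RAR of epithelia, followed at 20.9 to 27.5 TPM and RARA, the broadly expressed RAR, at 12.5 to 14.8 TPM. These 3 ranges did not overlap, so the order RXRA, RARG, RARA held in every library. RARB was far below them, at 0.15 to 0.46 TPM.

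RXRA had 3518 and 3144 counts in control and 3534 and 3508 in CBX7 libraries, 148.6 ± 1.64 CPM against 151.7 ± 7.55 CPM (SD, both n = 2). Its log2 fold change was 0.03 (95% interval -0.28 to 0.34). RARG had 981 and 851 counts in control and 1002 and 915 in CBX7 libraries, a log2 fold change of 0.01 (95% interval -0.30 to 0.33), and its 4 CPM values lay between 40.5 and 41.5. RARA had 575.3 and 481.5 counts in control and 676.0 and 548.6 in CBX7 libraries, a log2 fold change of 0.16 (95% interval -0.19 to 0.51). The RARA groups just failed to overlap in CPM (23.0 and 24.1 against 24.6 and 28.0), overlapped in TPM, and the log2 fold change turned to -0.06 with the length and GC trend removed. RARA counts were not whole, and RARA-AS1 on the opposite strand had 55.4 to 96.8 counts.

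RARB had 20 counts in control replicate 1 and 8 in each of the other 3 libraries, so the groups differed through a single control library. It is the classical retinoic acid target whose repeat is printed above. The long TOP2B gene overlaps it on the opposite strand with 4008 to 4305 counts, and RARB was too low for the test. At these counts a small difference in RARB was not detectable.

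Of the 6 members with enough counts to be tested, 0 had an adjusted p under 0.05 by edgeR, where 0.0202% of 14862 genes did, and 1 (CRABP2) had an unadjusted p under 0.05, where 4.74% of all genes did. With DESeq2's Wald test CRABP2 was called at the adjusted threshold, where 0.451% of genes were, and so was it with no filter on low counts, where 1.01% of genes were. The groups did not overlap in CPM for 3 of the 6 (CRABP2 and RARA higher, ALDH1A3 lower), where 30.2% of all genes tested did not overlap. Since CRABP2 and ALDH1A3 were the reason for the choice, these counts are a description. The median log2 fold change of the 6 was 0.04 (-0.04 with the length and GC trend removed), against 0.00 (0.0017) over all genes tested.

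**Figure D2:**
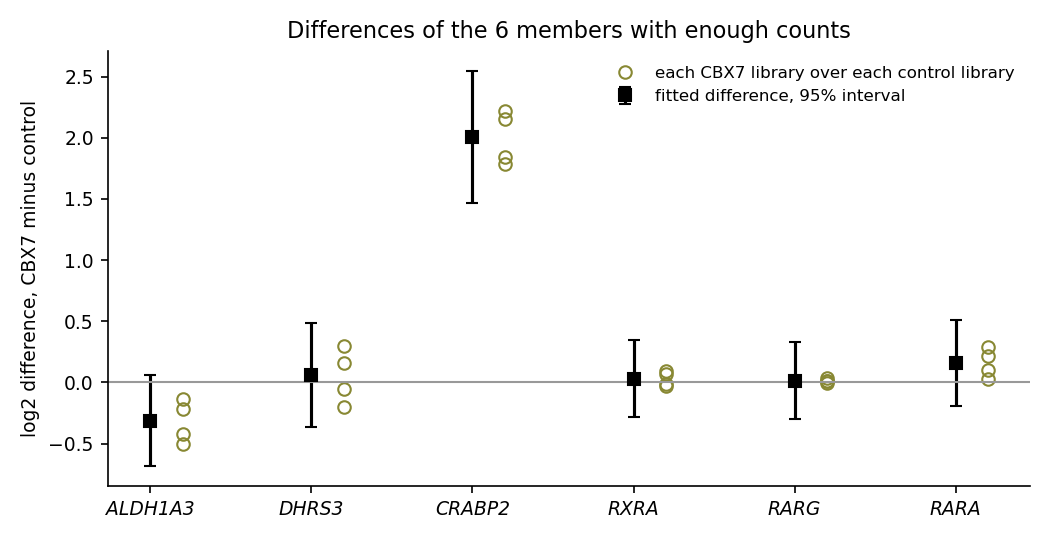
Log2 difference between CBX7 and control libraries for the 6 members with enough counts: black squares and bars are the edgeR estimate and its 95% interval, open circles each CBX7 library over each control library in CPM. The CRABP2 interval runs from 1.47 to 2.55 and all 4 of its ratios lie far above 0, while the intervals of the other 5 include 0 (that of ALDH1A3 does not once the length and GC trend is removed). The set was chosen by CRABP2 and ALDH1A3 in these libraries, so their intervals are a description and no test. The 4 ratios share the same 2 control and 2 CBX7 libraries.

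Retinoid-induced genes were compared next, as a measure of pathway output. Of 26 such genes in the list, 17 had enough counts, and none passed an adjusted p of 0.05 (lowest adjusted p 0.951, edgeR), while DESeq2's Wald test also called 0 of them. Over all genes tested 0.0202% passed. At an unadjusted p under 0.05 there was 1 of the 17 (BTG2, higher in CBX7 cells), where 4.74% of all genes lay in either direction and 3.42% were higher, so the share among the targets was near that of all genes. BTG2, an antiproliferative gene, had 18 and 18 counts in control and 34 and 33 in CBX7 libraries, a log2 fold change of 0.84 (95% interval 0.03 to 1.65, unadjusted p = 0.0442, adjusted p = 0.951, edgeR). With any 1 library left out, or by DESeq2, BTG2 did not have an unadjusted p under 0.05, and with the length and GC trend removed its log2 fold change was 0.75 (unadjusted p = 0.0699, edgeR).

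TGM2, tissue transglutaminase and the most abundant target, had 28041 and 23721 counts in control and 33030 and 32544 in CBX7 libraries. The groups did not overlap in CPM but did in TPM (351.8 and 352.1 against 326.8 and 450.8). Its level was 1153 ± 32.1 CPM against 1412 ± 62.9 CPM (SD, both n = 2), a log2 fold change of 0.29 (95% interval -0.01 to 0.60, adjusted p = 0.951, edgeR). CYP26B1, the retinoic acid hydroxylase that T24 cells expressed, had 410 and 387 counts in control and 494 and 524 in CBX7 libraries, a log2 fold change of 0.30 (95% interval -0.07 to 0.67, adjusted p = 0.951, edgeR). With the length and GC trend removed, the log2 fold change of TGM2 was 0.33 (95% interval 0.18 to 0.49, unadjusted p = 0.00215, adjusted p = 0.243, edgeR). That of CYP26B1 was 0.31 (95% interval 0.07 to 0.55, unadjusted p = 0.0192, adjusted p = 0.472, edgeR). RARRES1, a retinoid-induced membrane protein, was low, with 10.8 and 11 counts against 18 and 19. ICAM1, an adhesion molecule, differed by 0.21 (95% interval -0.11 to 0.53) and TNFAIP2 by 0.05 (95% interval -0.28 to 0.39) on the log2 scale.

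Several textbook targets of retinoic acid had few counts or none. CYP26A1, the hydroxylase with the repeat printed above, had 8 and 2.76 counts in control and 2 and 3 in CBX7 libraries. STRA6, the retinol transporter, had 6 and 5 counts in control and 10 and 10 in CBX7 libraries. LRAT, CDX1 and HOXB1 had at most 1 count in any library, and 6 of the 26 genes (CEBPE and PCK1 among them) had at most 3 counts throughout. Among the HOX targets, HOXA4 and HOXD4 both differed by -0.02 on the log2 scale, and HOXB4 by 0.22 (95% interval -0.43 to 0.87).

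The log2 fold change was positive for 13 of the 17 targets, with a median of 0.21 against 0.00 (0.0017) over all genes, and 11 were positive with a median of 0.16 once the length and GC trend was removed. In CPM 8 of the 17 (47.1%) had both CBX7 values above both control values, where 15.4% of all genes did. In TPM that held for 2 of the 17, BTG2 and RARRES1, where 12.2% of all genes did, so the count depended on the scale. Without CBX7 replicate 2 the median was 0.08. RAI14 and NRIP1 were lowest, at -0.23 and -0.21, and NRIP1 read 1297 counts in CBX7 replicate 1 against 2508 in CBX7 replicate 2.

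**Figure D3:**
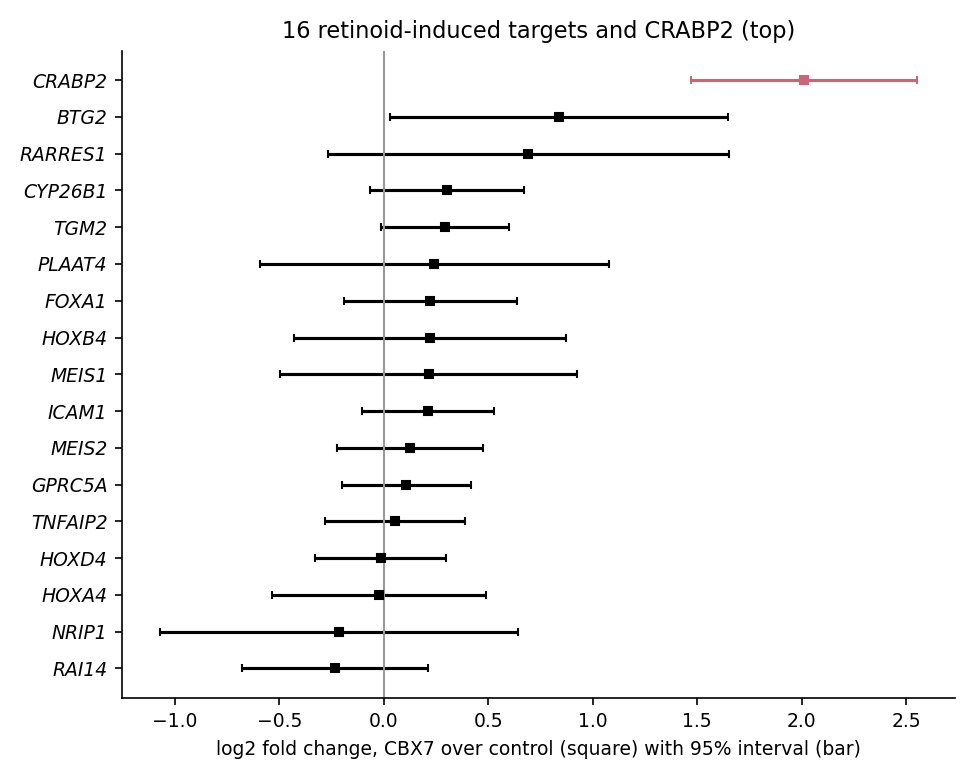
Log2 fold change (square) and 95% interval (bar) of 16 of the 17 retinoid-induced targets in CBX7 over control libraries, with CRABP2 in red at the top for scale. The interval of BTG2 starts at 0.03, those of the other 15 include 0 (the intervals of TGM2 and CYP26B1 do not once the length and GC trend is removed, and that of BTG2 then does), and the CRABP2 interval (1.47 to 2.55) lies above the estimate of every target shown.

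Genes that retinoids hold down in stratified epithelium gave little to read. Of 11 keratinisation genes in the table, 9 had at most 3 counts in every library, among them involucrin (IVL), loricrin (LOR) and KRT1. KRT10, a suprabasal keratin, had 263 and 258 counts in control and 438 and 263 in CBX7 libraries (log2 fold change 0.36, adjusted p = 0.951, edgeR), and TGM1 had 10 to 13 counts.

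Of 53 other genes of the pathway in the table, 34 were tested. None passed an adjusted p of 0.05 with edgeR (lowest 0.943) or DESeq2's Wald test, and 2 had an unadjusted p under 0.05, RBP7 higher (3.42% of all genes) and RBP4 lower (1.32% of all genes). Their median log2 fold change was -0.09, and 14 were positive and 20 negative. The median turned to 0.05 without CBX7 replicate 1, and was -0.013 without control replicate 2.

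The retinol carriers held both of those genes. RBP4, which carries retinol in plasma, had 160 and 128 counts in control and 111 and 64 in CBX7 libraries, so the groups did not overlap. Its level was 6.40 ± 0.430 CPM against 3.73 ± 1.22 CPM (SD, both n = 2), a log2 fold change of -0.78 (95% interval -1.46 to -0.09, unadjusted p = 0.0324, adjusted p = 0.943, edgeR), and -0.97 (adjusted p = 0.243) with the length and GC trend removed. RBP7, an intracellular retinol-binding protein, had 87 and 65 counts in control and 182 and 97 in CBX7 libraries, a log2 fold change of 0.82 (95% interval 0.03 to 1.61, unadjusted p = 0.0448, adjusted p = 0.951, edgeR). RBP7 is a short gene (625 bases), CBX7 replicate 1 read short genes high, and the value with the trend removed was 0.61 (adjusted p = 0.521, edgeR). Whether gene length accounts for any of the RBP7 difference was not tested. RBP7 did not have an unadjusted p under 0.05 without CBX7 replicate 1 or without control replicate 2, nor did RBP4 without control replicate 1. LRAT, which stores retinol as esters, had no count in any library.

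RPE65, the isomerase of the visual cycle, was listed at 103 to 233 TPM, with 13497 counts in CBX7 replicate 1 and 22718 in CBX7 replicate 2, and its counts were not whole. That is an unusual level for a gene of the retinal pigment epithelium, and whether these reads came from RPE65 transcripts was not tested. RBP5 followed the same order of libraries, with 94.5 counts in CBX7 replicate 1 and 233 in CBX7 replicate 2. DGAT1 and PNPLA4, which act on retinyl esters and other lipids, differed by 0.19 and 0.11 on the log2 scale.

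Among the enzymes that convert retinol and retinal, 9 of 18 were tested, their log2 fold changes ran from -0.18 (AKR1C3) to 0.22 (RDH13), and none had an unadjusted p under 0.05. RDH10, the main retinol dehydrogenase of embryos, had 180 and 179 counts in control and 195 and 156 in CBX7 libraries, where the groups overlapped in CPM. In TPM RDH10 was at 4.32 and 7.89 in control and 3.17 and 3.15 in CBX7 libraries, which did not overlap. RDH11 had 2126 and 1977 counts against 2452 and 2129, a log2 fold change of 0.10 (95% interval -0.22 to 0.43). DHRS4 differed by 0.19, and the abundant AKR1B1 and ADH5 by -0.10 and 0.01. With the length and GC trend removed, AKR1B1 was at -0.22 (95% interval -0.38 to -0.07, unadjusted p = 0.0127, adjusted p = 0.43, edgeR). AKR1B10, a retinal reductase, had 2 counts in control replicate 1 and none in the other libraries.

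Among the remaining receptors, RXRB differed by -0.02 (95% interval -0.40 to 0.36) and PPARG, an RXR partner that drives urothelial differentiation, by 0.05 (95% interval -0.37 to 0.47), and RXRG had 3 counts in CBX7 replicate 1 and none elsewhere. Of 15 corepressors and coactivators 14 were tested, with a median of -0.19, and 11 were negative. These are long genes (median 8049 bases, against 2867 over all genes tested) and CBX7 replicate 1 read low for most of them: EP300, a coactivator acetyltransferase, had 1396 counts there and 2697 in CBX7 replicate 2, against 2469 and 2647 in control. NCOA3 and NCOA1 differed by -0.35 and -0.32, none of the 14 had an unadjusted p under 0.05, and the median was -0.07 once the trend was removed. Without CBX7 replicate 1 the median turned to 0.11, and without CBX7 replicate 2 it was -0.64. Whether gene length accounts for the negative values was not tested. The corepressors NCOR1 and HDAC3, which sit on receptors without ligand, differed by -0.19 and 0.00 (0.0040).

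The 5 genes whose centred log2(CPM + 0.5) over the 4 libraries was closest to that of CRABP2 were C1QL4, LLGL2, ARHGEF16, PLPP2 and CYGB, with Euclidean distances of 0.081 to 0.294. C1QL4 had 10 and 10 counts in control and 82 and 59 in CBX7 libraries, and LLGL2, a polarity gene, had 73 and 72 against 402 and 285. ARHGEF16, a guanine nucleotide exchange factor, had 34 and 35 against 206 and 158. All 5 had a larger fitted log2 fold change than CRABP2, from 2.18 (LLGL2) to 2.74 (C1QL4), and adding 0.5 CPM draws in the differences of low genes such as C1QL4. The likeness over 4 libraries depends on that choice and says nothing of shared control.

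**Figure D4:**
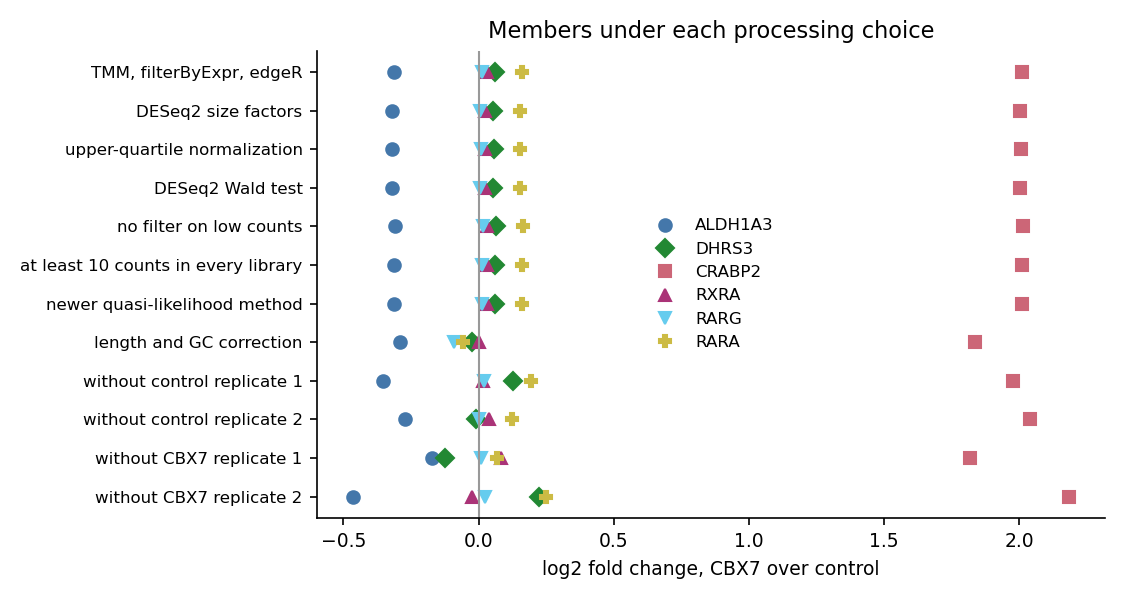
Log2 fold change of the 6 tested members (horizontal axis) under each processing choice (vertical axis), from normalization and filter to leaving out 1 library. CRABP2 stays between 1.82 and 2.18 and ALDH1A3 between -0.46 and -0.17, while DHRS3, RARG, RARA and RXRA lie on both sides of 0.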

How the data were processed

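Total RNA of T24 cells was sequenced in 2 control and 2 CBX7 libraries. The authors deposited estimated counts that need not be whole (88.2% to 88.9% of values were whole) and TPM per gene. The submitters' processing notes list cutadapt 1.9.1, HISAT2 2.0.1, HTSeq 0.6.1, DESeq2 and hg19, without saying which step made the table, and HTSeq does not give fractional counts by default. The annotation is not given in the sources used here. The deposited ratio (fold), log2 fold change and p-value columns of the authors' own comparison, and their group means of TPM, were not used. Identifiers of 58457 of 60623 genes were found in GENCODE release 29 on GRCh38, which gave positions and GC content and need not be the authors' annotation.

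Rounded counts passed edgeR 4.0.16 (R 4.3.3): filterByExpr, TMM scaling, then glmQLFit with glmQLFTest in the older, default form, condition being the only term, with Benjamini-Hochberg adjustment over 14862 genes. Standard errors are the log2 fold change over the root of the F statistic, and 95% intervals use its degrees of freedom. An exact two-sided permutation test of 2 against 2 libraries cannot go below p = 0.333. TPM values describe levels and were not tested. Alternatives were upper-quartile scaling or DESeq2's size factors, DESeq2 1.42.0, the filter dropped or set to 10 counts in every library, the newer quasi-likelihood form, a replicate block, a length and GC correction of each library (natural splines with 4 degrees of freedom each), the block with the correction, an adjusted p under 0.01, and each library left out. The fits were also run on simulated counts with a known log2 change of 1.5 in some genes. Those counts had no length or GC trend, unlike these libraries, so the check covers the code and not these data. The deposited replicates differed beyond sampling noise, so none was a copy.

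The members and gene lists were chosen with earlier results of these data known. Named are the members, CBX7, list genes with an unadjusted p under 0.05, the 3 with the largest difference and the 3 with the highest TPM in each list, genes at or under 3 counts, and the 5 nearest to CRABP2. STRA6, HOX genes, KRT10, TGM1 and a few other list genes outside that rule were added after their values were seen. RBPR2 was not found by name in the table, and LORICRIN was found as LOR. A few list genes are counted in their lists but not reported here by name.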

Additional observations from a re-analysis of the deposited data

How the results depend on the processing

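The log2 fold change of CBX7 lay between 7.31 and 7.35 in every fit to all 4 libraries, past the threshold each time, and from 7.26 to 7.44 with each library left out. That of CRABP2 was 1.84 to 2.01 with all libraries and 1.82 to 2.18 with each left out, and that of ALDH1A3 -0.32 to -0.29 and -0.46 to -0.17. RARA was at -0.056 and RARG at -0.092 with the length and GC correction. With each library left out, DHRS3 ranged from -0.12 to 0.22, RARA from 0.066 to 0.25, RARG from 0.0024 to 0.022 and RXRA from -0.024 to 0.084.

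At an adjusted p under 0.05, edgeR called 3 genes, against 67 by DESeq2 (Wald test), 265 when low counts were kept, 5 with the length and GC correction, 1 at an adjusted p under 0.01 and 45 to 5491 with each library left out (5491 without CBX7 replicate 2, 397 without CBX7 replicate 1, 59 and 45 without control replicates 1 and 2). At an unadjusted p under 0.05 it was 705, against 428 with DESeq2, 1368 with no filter, 1176 with the correction and 382 to 6647 with each library left out. Prior degrees of freedom were infinite with no filter, in the block and with a library left out, and a lone library was assumed to vary like the other group. Other pathway genes at an unadjusted p under 0.05 numbered 2, against 5 with the correction and 1 to 18 with each library left out. Retinoid-induced targets numbered 1 (BTG2), against 0 with DESeq2, 2 with no filter (BTG2 and TGM2), 2 with the correction (TGM2 and CYP26B1) and 0 to 5 with each library left out; leaving out CBX7 replicate 1 called TGM2 and RBP4 at the adjusted threshold, and leaving out CBX7 replicate 2 called 5 targets and 16 other pathway genes. Among the members, chosen on these same libraries, the fit with 1 library left out put CRABP2 past the adjusted threshold each time and ALDH1A3 without CBX7 replicate 2; these are descriptions and test nothing.

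The groups share replicate numbers, which no source ties to a batch. Same-numbered libraries deviated together (correlation 0.38 over 14862 genes and 0.62 over 11077 with a mean of at least 100 counts; 2 pairs). The replicate block called 361 genes at the adjusted and 1511 at the unadjusted threshold, the latter with 8 other pathway genes and 0 targets, and the replicate block with length and GC correction called 148 and 1723, with 7 and 5; RARA was then at -0.059 and RARG at -0.094. RBP4 passed the adjusted threshold in the first, and CRABP2, as a description, in both. At 56 to 287 counts for CRABP2 and 8 to 20 for RARB, depth limits what these libraries show.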
